A study of Mus musculus with 10 samples.

Results

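The 9 genes described here encode transcription factors that set or remodel macrophage identity: Cebpa, Cebpb, Cebpd, Spi1, Maf, Mitf, Tfec, Batf and Klf4. They were taken by name from a table of 55573 mouse genes, as factors of macrophage lineage and activation. The rule used no values, but the choice was made with earlier results of these data known. RNA was sequenced from BMDMs, macrophages that were grown out of mouse bone marrow in medium with M-CSF, here from female WT C57BL/6 mice whose age the labels do not give. All cells were harvested after 4 hours of treatment, in 5 groups with 2 libraries each, and the labels call the libraries of a group biological replicates without saying whether they came from separate mice, so the tests measure the spread between these libraries. The first group received vehicle. The second received 5 μg polyU, a synthetic single-stranded RNA of uridines delivered with the lipid DOTAP, and whether vehicle contained DOTAP is not stated. The third, PNPi+dG/rG, received 1 μM ulodesine, an inhibitor of purine nucleoside phosphorylase (PNP), together with 5 μM dG (deoxyguanosine) and 5 μM rG (guanosine), which PNP would otherwise break down. The fourth received polyU and the PNPi+dG/rG mix at the same doses, and this group (PNPi+dG/rG+polyU) is called the combination below. The fifth received 1 ng/mL R848, a synthetic imidazoquinoline. The receptor in question is TLR7, an endosomal sensor that binds guanosine nucleosides at one site and single-stranded RNA at another, and that R848 engages without RNA. The comparisons ask how far the PNPi+dG/rG mix and RNA, separately and together, move these factors, and whether R848 moves them in the same way.

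As background, macrophages are made by a small set of factors that act together. PU.1, the product of Spi1, opens macrophage enhancers, and C/EBP proteins occupy many of the same sites. C/EBPα directs progenitors to the myeloid lineage, whereas C/EBPβ and C/EBPδ are known for the acute-phase and inflammatory response. c-Maf (Maf) helps to hold mature macrophages in a differentiated state that does not divide. MITF and TFEC belong to the MiT/TFE family, which binds E-boxes of lysosomal and osteoclast genes, and TFEC is largely restricted to macrophages. BATF is a bZIP protein that pairs with JUN proteins and IRFs, and KLF4 is a zinc finger factor known for monocyte differentiation and for restraining inflammatory genes.

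Values are given in CPM (the reads of a gene scaled to the same total of reads on genes in every library) as deposited, with the libraries in the order of their replicate numbers. CPM keeps no gene length, so a value compares a gene between libraries and never 1 gene with another. All 9 genes were well measured: the lowest value was 3.31 CPM and the fewest reads of any of them in a library was 58, so all 9 passed the filter (1 CPM or more in 2 or more libraries) in every group, and none entered through a group in which it was high. Libraries held 14128124 to 38392592 reads on genes. Fold changes are differences of mean log2 CPM, with the SE of a limma model fitted to all 10 libraries, and adjusted p means limma's p-value after Benjamini-Hochberg adjustment over the 11978 genes tested. A gene is called changed at an adjusted p under 0.05 together with at least 2-fold, and higher or lower for short.

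The cells bore their label. The summed level of 10 macrophage markers, among them Lyz2, Csf1r, Cd68 and Adgre1, lay between 18779 and 21960 CPM in all 10 libraries, and all 10 had reads in every group. Lyz2 made up much of that sum. Of the 10, Mertk was lower and Cd14 higher with the combination and with R848 (Mertk by −2.17 and −2.87, Cd14 by 1.20 and 2.69 on the log2 scale), and Fcgr1 was lower with R848 (−1.07). Markers of dendritic cells and lymphocytes were scarce: 6 dendritic cell markers summed to 0.991 CPM or less with Flt3, Xcr1, Cd209a and Siglech nearly or wholly without reads, and 6 lymphocyte markers to 0.449 CPM or less. In bulk RNA, fewer cells of a kind and less RNA per cell cannot be told apart. Other lists were at higher levels or moved with the treatments. The sum of 7 fibroblast markers was 0.561 to 1.44 CPM in the first 3 groups, 4.03 and 5.28 CPM with the combination, and 139 and 149 CPM with R848, mostly from Col1a1, Col1a2 and Pdgfrb, while Lum had reads in only 1 of the R848 libraries. The sum of 8 neutrophil and granulocyte precursor markers was 4.52 to 6.88 CPM in the same 3, 9.98 and 9.99 CPM with the combination and 23.0 and 25.2 CPM with R848, where S100a8 made up most of it and Mpo, Elane, Ly6g, Ngp and Ltf had no read. Not all of these markers rose with R848: S100a8 and Camp were higher, S100a9 and Ngp lower. Camp reached 1 CPM only with R848 and so passed the filter through that group. With vehicle, S100a9 had 1.18 and 1.46 CPM, Ngp 1.12 and 1.01 CPM, and Ltf 0.617 and 1.07 CPM. S100a9 had at most 0.0532 CPM with R848. Kit, the only one of 4 mast cell and basophil markers above trace level, fell from 13.8 and 14.2 CPM with vehicle to 2.83 and 1.76 CPM with the combination and 0.584 and 0.980 CPM with R848, and the sum of 4 endothelial markers, chiefly Kdr and Vwf, was 246 and 240 CPM, 143 and 143 CPM, and 64.5 and 69.8 CPM in these groups. The part of these cells in the results below was not tested.

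To place the genes in the genome, the windows around the start sites of 5 of them are shown, 3 that rose most among those with a listed window (Cebpb, Tfec and Batf) and both that fell (Cebpa and Klf4). The windows run from 250 bases before to 50 bases after the first transcribed base in RefSeq on build GRCm38.p6, and 6 of the 9 genes had a window, the sixth being Mitf with 3 alternative starts. Each is written 5′ to 3′ on the strand of its gene. They lie at chr2:167688665-167688964 on the + strand (Cebpb), chr6:16898392-16898691 on the − strand (Tfec), chr12:85686470-85686769 on the + strand (Batf), chr7:35119043-35119342 on the + strand (Cebpa) and chr4:55532426-55532725 on the − strand (Klf4). Capitals mark the motifs that a search on both strands found.
Cebpb: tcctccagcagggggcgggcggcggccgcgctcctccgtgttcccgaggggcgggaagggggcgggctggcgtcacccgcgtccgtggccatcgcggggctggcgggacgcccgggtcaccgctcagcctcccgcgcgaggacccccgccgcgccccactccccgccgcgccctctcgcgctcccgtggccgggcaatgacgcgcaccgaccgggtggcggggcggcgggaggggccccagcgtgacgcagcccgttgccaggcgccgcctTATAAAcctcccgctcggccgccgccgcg
Tfec: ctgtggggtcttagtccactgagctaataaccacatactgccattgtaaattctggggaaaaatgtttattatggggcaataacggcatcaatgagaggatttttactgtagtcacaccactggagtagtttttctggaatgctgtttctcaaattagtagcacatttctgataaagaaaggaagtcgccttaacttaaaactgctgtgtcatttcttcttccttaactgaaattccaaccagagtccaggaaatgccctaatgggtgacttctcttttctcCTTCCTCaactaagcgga
Batf: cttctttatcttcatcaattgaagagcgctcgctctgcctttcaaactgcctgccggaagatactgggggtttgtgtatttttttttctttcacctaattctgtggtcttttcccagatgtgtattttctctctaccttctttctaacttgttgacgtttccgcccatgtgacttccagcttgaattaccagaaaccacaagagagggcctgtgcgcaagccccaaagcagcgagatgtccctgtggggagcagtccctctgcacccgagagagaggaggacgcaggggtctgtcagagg
Cebpa: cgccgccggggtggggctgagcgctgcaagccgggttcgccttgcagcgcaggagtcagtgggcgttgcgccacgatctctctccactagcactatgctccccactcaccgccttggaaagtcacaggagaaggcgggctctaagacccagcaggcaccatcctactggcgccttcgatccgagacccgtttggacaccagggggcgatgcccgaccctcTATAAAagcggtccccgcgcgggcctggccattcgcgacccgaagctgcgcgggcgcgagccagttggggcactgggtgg
Klf4: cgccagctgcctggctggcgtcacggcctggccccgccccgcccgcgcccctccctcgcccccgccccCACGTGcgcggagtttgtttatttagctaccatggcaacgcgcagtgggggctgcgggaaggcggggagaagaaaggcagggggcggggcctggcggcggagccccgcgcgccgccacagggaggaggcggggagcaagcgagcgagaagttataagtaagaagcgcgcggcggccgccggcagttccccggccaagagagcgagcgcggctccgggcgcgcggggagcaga

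The search covered TATAAA, the C/EBP motif TTGCNNAA, the AP-1 motif TGANTCA, the PU.1 motif GAGGAAG, the E-box CACGTG, the ISRE of interferon-induced genes and the NF-κB consensus. Each of the printed windows held at most 1 match, so none overlapped. Cebpa had TATAAA with its first base 30 bases upstream of the start, and Cebpb had it 21 bases after the listed start. Tfec had the PU.1 motif on the opposite strand, printed as CTTCCTC, 32 bases after the start, and Klf4 had the E-box 182 bases upstream. Batf had none of the 7. Of the 3 Mitf windows, the first held a C/EBP motif 129 bases upstream, the second a C/EBP motif 35 bases after the start and an NF-κB consensus 177 bases upstream, and the third TATAAA 175 bases upstream. Over all 32851 RefSeq windows of this length, TATAAA was found in 13.6%, the PU.1 motif in 13.6%, the C/EBP motif in 10.8%, the NF-κB consensus in 8.46%, the AP-1 motif in 7.81%, the E-box in 7.15% and the ISRE in 3.44%, so single matches are common and are given as description.

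The C/EBP genes moved apart from each other. Cebpa lies on chromosome 7 (35119293 to 35121928, + strand, GRCm38) and had 146 and 160 CPM with vehicle, 86.7 and 94.2 CPM with polyU, and 142 and 137 CPM with PNPi+dG/rG. It stood at 49.3 and 44.0 CPM with the combination and at 37.3 and 36.2 CPM with R848. Both stimulated groups with the lowest values were separate from each other and from polyU, whereas PNPi+dG/rG lay just under the vehicle libraries. The fall was 3.28-fold with the combination (log2 −1.72 ± 0.07 SE, n = 2 libraries per group, limma adjusted p = 2.32e-12) and 4.16-fold with R848 (log2 −2.06 ± 0.07, limma adjusted p = 1.13e-13). With polyU it was 1.69-fold (log2 −0.76 ± 0.07, limma adjusted p = 3.04e-07).

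Cebpb (chromosome 2, 167688915 to 167690418, + strand) went the other way. It had 209 and 236 CPM with vehicle, 252 and 270 CPM with polyU, 224 and 226 CPM with PNPi+dG/rG, 563 and 640 CPM with the combination, and 1036 and 1162 CPM with R848. The last 2 groups stood above all others and did not overlap, and PNPi+dG/rG lay inside the range of vehicle. The rise was 2.70-fold with the combination (log2 1.43 ± 0.08, limma adjusted p = 2.84e-08) and 4.94-fold with R848 (log2 2.30 ± 0.08, limma adjusted p = 2.36e-10). The 1.17-fold difference with polyU passed the test (log2 0.23 ± 0.08, limma adjusted p = 0.0390) but not once each library was centred on its median gene (limma adjusted p = 0.0811).

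Cebpd (chromosome 16, 15887286 to 15891031, + strand) rose most of the family. Its levels were 21.9 and 26.4 CPM with vehicle, 51.1 and 56.4 CPM with polyU, 26.3 and 27.9 CPM with PNPi+dG/rG, 378 and 368 CPM with the combination, and 328 and 343 CPM with R848. PolyU alone already lifted it clear of vehicle, by 2.23-fold (log2 1.16 ± 0.08, limma adjusted p = 3.19e-08). With the combination the rise was 15.5-fold (log2 3.95 ± 0.08, limma adjusted p = 2.95e-15) and with R848 13.9-fold (log2 3.80 ± 0.08, limma adjusted p = 2.03e-15).

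Because both genes of a ratio come from the same library, the balance between C/EBP genes does not depend on how libraries were scaled. Relative to vehicle, the ratio of Cebpb to Cebpa was 1.99-fold higher with polyU, 1.11-fold with PNPi+dG/rG, 8.87-fold with the combination and 20.6-fold with R848. The log2 values of the single libraries were 2.98 and 3.32 with the combination and 4.26 and 4.47 with R848, which do not overlap. The ratio of Cebpd to Cebpa was 50.9-fold higher with the combination (log2 5.61 and 5.73 in its libraries) and 58.0-fold higher with R848 (log2 5.80 and 5.91). These ratios were not tested.

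**Figure D1:**
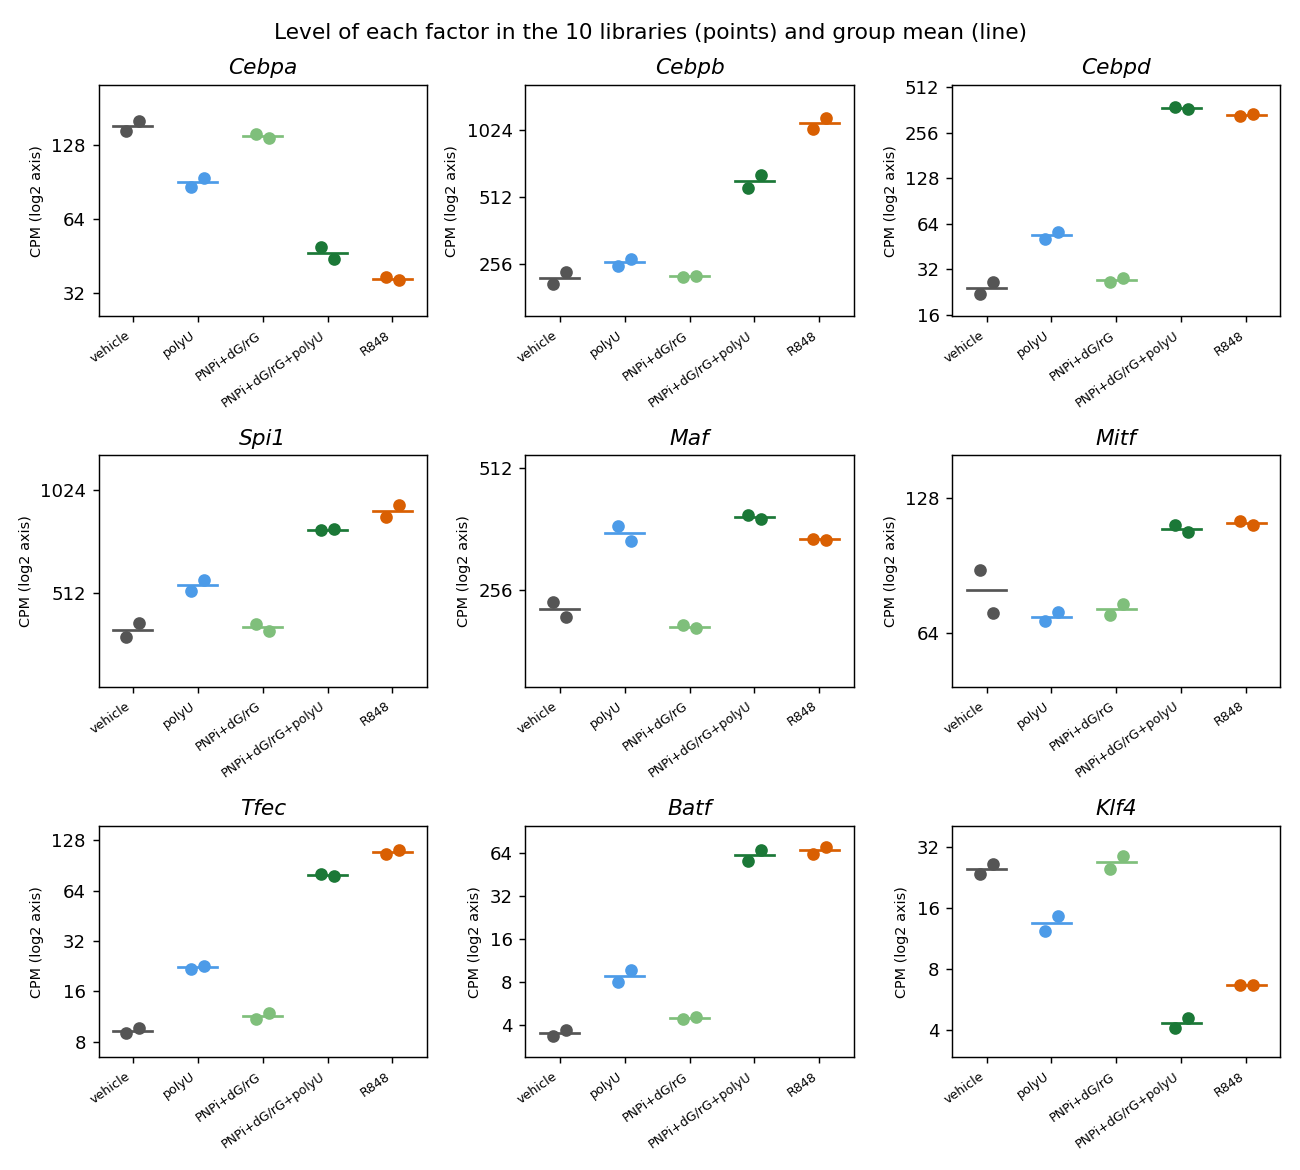
Level of each of the 9 factors in CPM on log2 axes, with 1 point per library and a line at the group mean, for the 5 groups of 2 libraries. Cebpa and Klf4 are lowest in the 2 groups on the right (PNPi+dG/rG+polyU, then R848), where Cebpb, Cebpd, Tfec and Batf are highest, and PNPi+dG/rG stays close to vehicle.

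Spi1, which encodes PU.1 (chromosome 2, 91082390 to 91115756, + strand), changed less but with little spread. It had 381 and 418 CPM with vehicle, 518 and 557 CPM with polyU, 415 and 396 CPM with PNPi+dG/rG, 780 and 783 CPM with the combination, and 852 and 920 CPM with R848. The groups followed each other without overlap except that PNPi+dG/rG lay inside the range of vehicle. Against vehicle, the combination was 1.96-fold higher (log2 0.97 ± 0.05, limma adjusted p = 1.77e-10), which is under the 2-fold threshold, and R848 was 2.22-fold higher (log2 1.15 ± 0.05, limma adjusted p = 1.09e-11). With libraries centred on their median gene, the first of these was 1.18 on the log2 scale and past 2-fold, as it was without replicate 2 of vehicle (log2 1.04).

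Klf4 (chromosome 4, 55527143 to 55532466, − strand) fell most deeply with the combination. Its levels were 23.5 and 26.5 CPM with vehicle, 12.3 and 14.6 CPM with polyU, 24.7 and 29.0 CPM with PNPi+dG/rG, 4.11 and 4.57 CPM with the combination (58 and 65 reads), and 6.64 and 6.64 CPM with R848. Vehicle and PNPi+dG/rG overlapped, and the other groups were separate from them and from each other. The fall was 5.75-fold with the combination (log2 −2.52 ± 0.13, limma adjusted p = 4.41e-11), 3.75-fold with R848 (log2 −1.91 ± 0.13, limma adjusted p = 7.95e-10) and 1.86-fold with polyU (log2 −0.90 ± 0.13, limma adjusted p = 3.78e-05). The last was past 2-fold without replicate 2 of polyU (log2 −1.02).

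In the deposited CPM, Maf (chromosome 8, 115682942 to 115707794, − strand) was the gene on which polyU alone acted almost as strongly as the full combination. It had 239 and 219 CPM with vehicle, 369 and 338 CPM with polyU, 209 and 206 CPM with PNPi+dG/rG, 393 and 384 CPM with the combination, and 341 and 341 CPM with R848. The R848 libraries lay within the range of polyU, and those of PNPi+dG/rG lay below vehicle. Maf stayed under 2-fold everywhere, at 1.54-fold with polyU (log2 0.63 ± 0.05, limma adjusted p = 1.09e-07), 1.70-fold with the combination (log2 0.76 ± 0.05, limma adjusted p = 1.56e-09) and 1.49-fold with R848 (log2 0.57 ± 0.05, limma adjusted p = 2.93e-08). Centring libraries on the median gene put the R848 difference past 2-fold (log2 1.17). It also gave 0.58 with polyU and 0.97 with the combination, which then differed by 0.39 (limma adjusted p = 4.49e-06).

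The MiT/TFE pair rose with the combination and with R848, but by different amounts. Mitf (chromosome 6, 97807052 to 98021349, + strand) had 88.4 and 71.1 CPM with vehicle, 68.1 and 71.2 CPM with polyU, 70.3 and 74.4 CPM with PNPi+dG/rG, 111 and 107 CPM with the combination, and 114 and 111 CPM with R848. Its vehicle libraries were the most uneven pair of the gene, with 1 library each of polyU and PNPi+dG/rG below their lower value and the other inside their range, and the last 2 groups stood above all others. The difference from vehicle was 1.38-fold with the combination (log2 0.46 ± 0.08, limma adjusted p = 0.000146) and 1.42-fold with R848 (log2 0.51 ± 0.08, limma adjusted p = 4.43e-05), and the latter passed 2-fold (log2 1.10) when libraries were centred on the median gene. With polyU the value was −0.19 ± 0.08 on the log2 scale and did not pass the test (limma adjusted p = 0.0820), although it did with centred libraries (limma adjusted p = 0.0423).

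Tfec (chromosome 6, 16833373 to 16898441, − strand) showed a graded rise instead. It had 9.03 and 9.61 CPM with vehicle, 21.9 and 22.7 CPM with polyU, 10.9 and 11.8 CPM with PNPi+dG/rG, 80.3 and 78.6 CPM with the combination, and 106 and 112 CPM with R848. No groups overlapped. The rise was 2.39-fold with polyU (log2 1.26 ± 0.08, limma adjusted p = 4.51e-09), 8.52-fold with the combination (log2 3.09 ± 0.08, limma adjusted p = 7.80e-15) and 11.7-fold with R848 (log2 3.54 ± 0.08, limma adjusted p = 6.49e-16). Set against Mitf in the same library, Tfec was 2.72-fold above its vehicle ratio with polyU, 6.18-fold with the combination and 8.22-fold with R848.

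Batf (chromosome 12, 85686669 to 85709087, + strand) had the largest fold changes of the 9. It was lowest with vehicle, at 3.31 and 3.65 CPM (59 and 65 reads), and had 7.96 and 9.76 CPM with polyU, 4.38 and 4.52 CPM with PNPi+dG/rG, 56.8 and 67.5 CPM with the combination, and 62.8 and 71.0 CPM with R848. The last 2 groups overlapped each other and were far from the rest. The rise was 2.53-fold with polyU (log2 1.34 ± 0.12, limma adjusted p = 5.18e-07), 17.8-fold with the combination (log2 4.15 ± 0.12, limma adjusted p = 8.84e-14) and 19.2-fold with R848 (log2 4.26 ± 0.12, limma adjusted p = 2.82e-14).

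Counted over the set, polyU alone moved 8 of the 9 past an adjusted p of 0.05, where 39.3% of all genes passed, and changed 3 by at least 2-fold, all higher (Cebpd, Tfec and Batf), against 3.99% of all genes in either direction and 3.21% higher. The combination moved all 9 past an adjusted p of 0.05 (68.9% of all genes) and changed 6, with Cebpb, Cebpd, Tfec and Batf higher and Cebpa and Klf4 lower, against 22.4% of all genes, of which 8.12% were higher and 14.3% lower. R848 likewise moved all 9 (82.1% of all genes) and changed 7, the same 6 and Spi1, against 39.2% of all genes, 8.89% higher and 30.3% lower. The median absolute log2 change of the 9 was 0.76 with polyU, 1.72 with the combination and 2.06 with R848, beside 0.22, 0.47 and 0.77 over all genes tested.

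Over all genes tested, the median log2 change against vehicle was 0.02 with polyU, −0.22 with the combination and −0.50 with R848. The median level of the libraries, on which they were centred, differed from vehicle by 0.04, −0.21 and −0.59 in the same order. With each library centred on its median gene, 5 of the 9 were higher and 2 lower with the combination, beside 9.95% and 10.4% of all genes, and 7 were higher and 2 lower with R848, beside 15% and 17.6%.

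**Figure D2:**
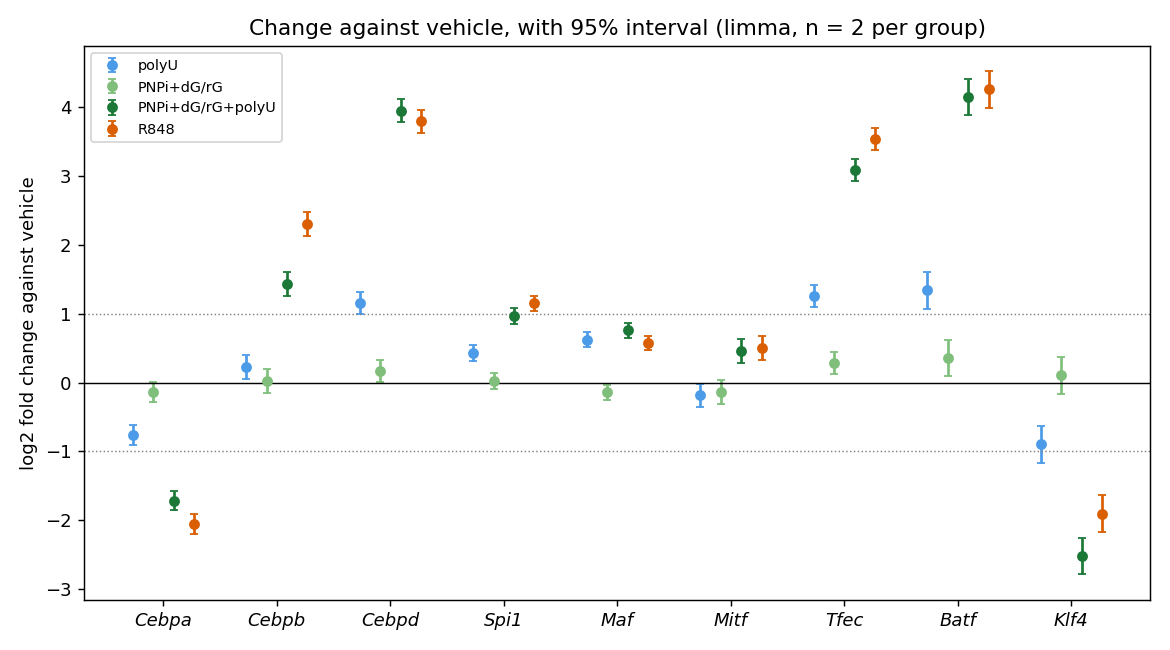
Log2 fold change of each factor against vehicle with its 95% interval from limma (n = 2 libraries per group), for each of the 4 treatments, with dotted lines at 2-fold. Batf, Cebpd and Tfec rise most with the combination (4.15, 3.95 and 3.09) and R848 (4.26, 3.80 and 3.54), and all PNPi+dG/rG points lie between −0.14 and 0.35.

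PNPi+dG/rG without polyU moved none of the 9 past the test. By limma, 0 of the 9 had an adjusted p under 0.05 with PNPi+dG/rG against vehicle, where 0.801% of all genes did and 0.0751% also changed at least 2-fold (0.0668% higher and 0.00835% lower). At an unadjusted p under 0.05 there were 4 of the 9 and 1076 of all genes. The 4 were Cebpd (log2 0.17, 95% interval 0.0033 to 0.33), Maf (log2 −0.14, −0.25 to −0.03), Tfec (log2 0.29, 0.13 to 0.45) and Batf (log2 0.35, 0.09 to 0.62). All 9 intervals lay between −0.30 and 0.62, so a 2-fold difference was outside each of them. These libraries were the deepest of the series.

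With polyU present, adding PNPi+dG/rG moved all 9. No group received the inhibitor or the nucleosides alone, so their parts cannot be told apart. The combination against polyU alone passed the test for all 9 (63.3% of all genes) and changed 5, against 15.5% of all genes. Batf rose 7.02-fold (log2 2.81 ± 0.12, limma adjusted p = 2.06e-11), Cebpd 6.95-fold (log2 2.80 ± 0.08, limma adjusted p = 3.40e-13), Tfec 3.56-fold (log2 1.83 ± 0.08, limma adjusted p = 8.68e-12) and Cebpb 2.30-fold (log2 1.20 ± 0.08, limma adjusted p = 2.08e-07). Klf4 fell 3.09-fold (log2 −1.63 ± 0.13, limma adjusted p = 1.78e-08). Of all genes, 5.29% passed the test as at least 2-fold higher and 10.2% as at least 2-fold lower. Cebpa fell by 1.94-fold, just under the threshold (log2 −0.96 ± 0.07, limma adjusted p = 6.20e-09), and passed it when replicate 1 of polyU or replicate 1 of the combination was left out (log2 −1.02 and −1.04). With centred libraries its fall was smaller (log2 −0.70, limma adjusted p = 4.01e-07). The median log2 change of all genes in this comparison was −0.24. Mitf rose by 0.65 ± 0.08 on the log2 scale (limma adjusted p = 8.00e-06), Spi1 by 0.54 ± 0.05 (limma adjusted p = 3.19e-07) and Maf by 0.14 ± 0.05 (limma adjusted p = 0.0271).

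The interaction term of the limma model is how much more PNPi+dG/rG did in the presence of polyU than in its absence. It passed the test for all 9 (50.7% of all genes) and was at least 2-fold for 5, beside 13.4% of all genes. It was 2.63 ± 0.11 for Cebpd (log2, limma adjusted p = 9.75e-11), 2.46 ± 0.18 for Batf (limma adjusted p = 1.73e-08), 1.54 ± 0.11 for Tfec (limma adjusted p = 1.20e-08), 1.19 ± 0.11 for Cebpb (limma adjusted p = 8.04e-06) and −1.73 ± 0.18 for Klf4 (limma adjusted p = 1.02e-06). Of all genes, 4.55% passed the test with a positive value of at least 2-fold and 8.87% with a negative one. For Cebpd, the separate log2 changes with polyU and with PNPi+dG/rG added up to 1.33, whereas both together gave 3.95. For Klf4 the sum was −0.79 and both together gave −2.52. Mitf was the only one of the 9 whose sum and joint change differed in sign, −0.32 against 0.46 (interaction 0.78 ± 0.11, limma adjusted p = 6.87e-05), and its interaction passed 2-fold with centred libraries (log2 1.07). Maf had the smallest interaction in the deposited CPM (0.28 ± 0.07, limma adjusted p = 0.00453). With centred libraries it was 0.56, and that of Cebpa was smaller in size (−0.53).

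**Figure D3:**
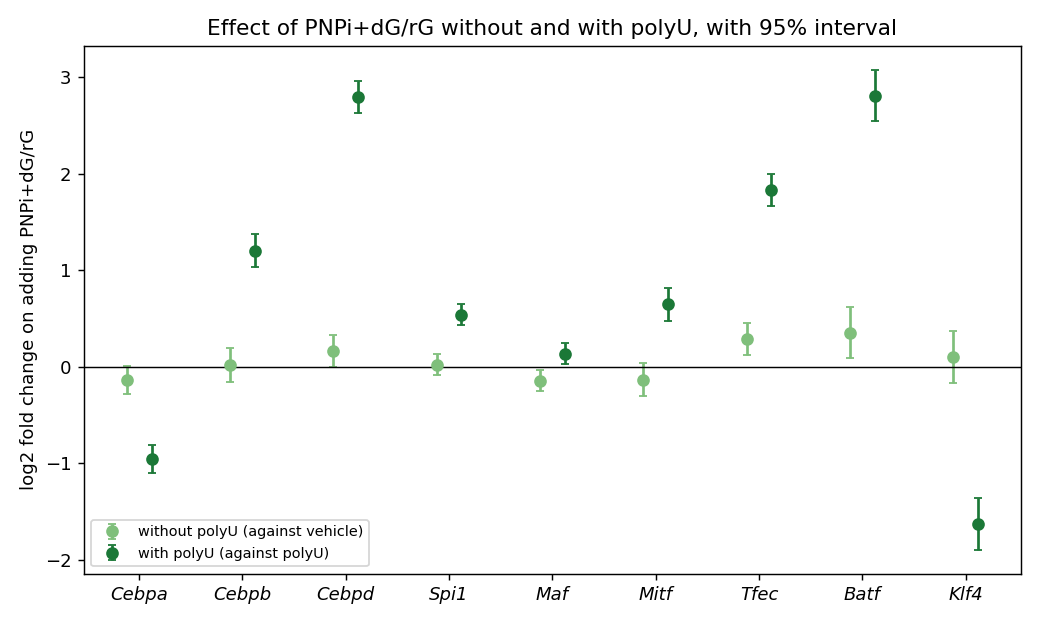
Log2 change on adding PNPi+dG/rG, without polyU (against vehicle) and with polyU (against polyU), for each factor with 95% intervals from limma (n = 2 libraries per group). Without polyU the points stay near 0 (−0.14 to 0.35), and with polyU they range from −1.63 (Klf4) to 2.81 (Batf).

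In the deposited CPM, the combination and R848 brought the 9 to similar but not equal levels, at doses of different agents that were not matched. By limma, 6 of the 9 passed an adjusted p of 0.05 (70.7% of all genes; also 6 of the 9 and 8714 of all genes at an unadjusted p under 0.05), but 0 differed by 2-fold, where 20.7% of all genes did (16.9% higher and 3.86% lower). The median absolute log2 difference was 0.19 for the 9 and 0.47 for all genes tested, both including the shift between libraries given below. Cebpb was lower with the combination than with R848 (log2 −0.87 ± 0.08, limma adjusted p = 2.31e-06), as were Klf4 (−0.62 ± 0.13, limma adjusted p = 0.000412), Tfec (−0.45 ± 0.08, limma adjusted p = 6.90e-05) and Spi1 (−0.18 ± 0.05, limma adjusted p = 0.00635). For Batf the difference was −0.11 (95% interval −0.38 to 0.16), for Mitf −0.04 (−0.21 to 0.13) and for Cebpd 0.15 (−0.01 to 0.32), none of which passed the test.

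The median level of the libraries was 0.38 higher on the log2 scale with the combination than with R848 (the median change of all genes was 0.31), and the sign for some of the 9 depended on whether this was removed. Cebpa and Maf passed the test as higher with the combination in the deposited CPM (log2 0.34 ± 0.07, limma adjusted p = 0.000305, and 0.19 ± 0.05, limma adjusted p = 0.00362), whereas with centred libraries Cebpa was at −0.04 (limma adjusted p = 0.627) and Maf at −0.20 (limma adjusted p = 0.00218). Cebpd likewise turned from 0.15 to −0.23 (limma adjusted p = 0.0210). Cebpb reached −1.25 with centred libraries and was then the only one of the 9 past 2-fold. The other 5 (Spi1, Mitf, Tfec, Batf and Klf4) kept their negative sign, at −0.56, −0.43, −0.84, −0.49 and −0.999. After centring, 9.97% of all genes passed the test as at least 2-fold higher and 7.11% as at least 2-fold lower. By this count the 9 no longer stood apart from all genes.

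**Figure D4:**
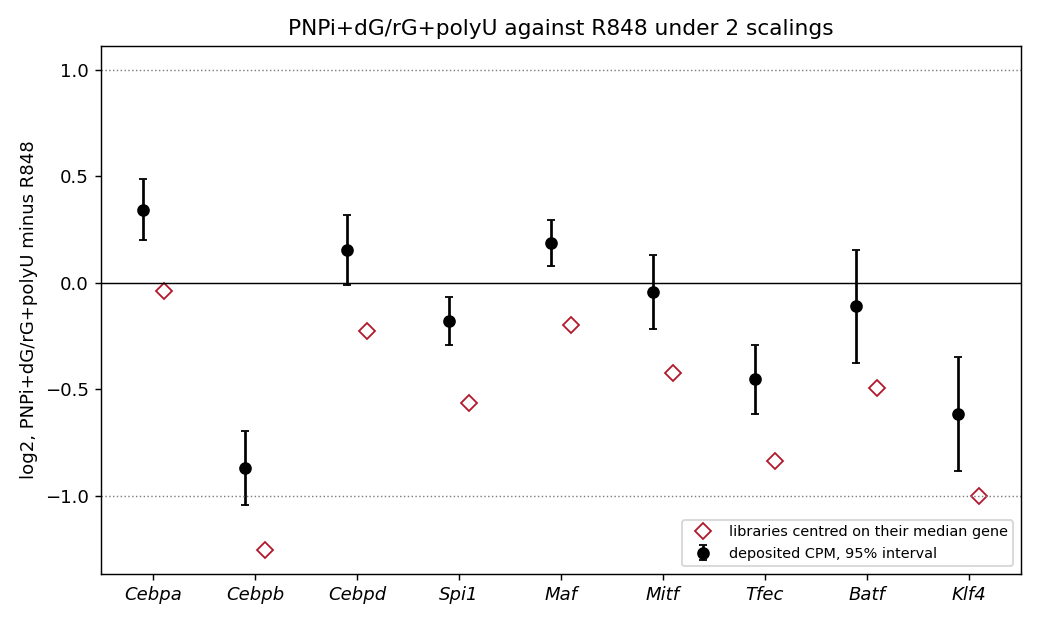
Log2 difference of the combination (PNPi+dG/rG+polyU) minus R848 for each factor, in the deposited CPM with 95% intervals (filled points) and with each library centred on its median gene (open diamonds), n = 2 libraries per group. Cebpa, Cebpd and Maf lie above 0 in the deposited CPM and below it when centred, and Cebpb is lowest under both scalings (−0.87 and −1.25).

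Ordered by level, the 5 groups gave 36 neighbouring pairs over the 9 genes, of which 15 did not differ at an adjusted p of 0.05. Vehicle and PNPi+dG/rG were neighbours that did not differ for all 9, where only 0.801% of all genes differed. The combination and R848, the top pair, did not differ for Cebpd, Mitf and Batf, where 70.7% of all genes differed. The remaining 3 pairs were polyU and PNPi+dG/rG for Cebpb (difference 0.21, limma adjusted p = 0.0576) and Mitf (0.05, limma adjusted p = 0.647), and R848 and polyU for Maf (0.05, 95% interval −0.06 to 0.16). Tfec and Spi1 rose in the order vehicle, PNPi+dG/rG, polyU, the combination, R848, as did Cebpb and Batf. Cebpd had the combination on top, Maf ran from PNPi+dG/rG to the combination with R848 below polyU, and Mitf began with polyU. Cebpa ran in the reverse of the first order, from R848 at the bottom to vehicle at the top, and Klf4 ran from the combination through R848 and polyU to vehicle and PNPi+dG/rG.

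Genes whose pattern over the 10 libraries was most like each factor were found among 8458 other genes averaging 10 CPM or more, by the root mean square difference of log2(CPM + 1) after centring each gene on its own mean. The closest match of all was Snx20 for Spi1 (0.0387), followed by Dse (0.0774). Cebpd and Batf were each other's nearest gene (0.124), with Icosl next for Cebpd (0.138) and Tnfrsf1b next for Batf (0.163). The nearest were Ift57 (0.105) and Ebi3 (0.115) for Cebpb, Marcksl1 (0.0949) and Nfkb2 (0.125) for Tfec, and Gsdmd (0.0862) and Tapbpl (0.104) for Maf. For Mitf they were Abhd17c (0.0799) and Eif1a (0.0875), for Cebpa Dgkd (0.0886), and for Klf4 Irf2bpl (0.0935) and Ski (0.141). These values describe likeness in these libraries, which share their depth and their control samples.

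Close relatives of the 9 were counted from lists of the same families. Beside each count stand 8.12% of all genes higher and 14.3% lower with the combination, and 8.89% higher and 30.3% lower with R848. Of 3 further C/EBP genes, Cebpe was not tested (at most 0.814 CPM), and neither Cebpg nor Ddit3, a C/EBP protein of the stress response, changed by 2-fold with the combination (log2 −0.75 and −0.26) or R848 (−0.67 and −0.84), with list medians of −0.51 and −0.75 beside −0.22 and −0.50 over all genes. Among the small MAF genes, Maff changed, from 7.52 and 7.64 CPM with vehicle to 45.7 and 42.1 CPM with the combination (log2 2.53 ± 0.09, limma adjusted p = 7.31e-13) and 78.5 and 83.7 CPM with R848 (log2 3.42 ± 0.09, limma adjusted p = 8.82e-15), while Mafg and Mafk stayed under 2-fold. Of the other MiT/TFE genes, Tfe3 stayed under 2-fold in both, and Tfeb was lower with R848 only by the 2-fold rule, with log2 −1.72 ± 0.10 (limma adjusted p = 1.20e-09) beside −0.53 ± 0.10 (limma adjusted p = 0.000416) with the combination. The difference of Tfeb between these treatments was 1.19 on the log2 scale, beside a median of 0.31 over all genes.

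Among 9 tested ETS genes, the family of PU.1, 3 were higher and 1 (Fli1) lower with the combination, and with R848 2 were higher (Spic and Ets2) and 3 lower (Ets1, Elf1 and Fli1). Spic, a close relative of PU.1 known from red pulp macrophages, went from 0.505 and 0.506 CPM with vehicle to 5.31 and 5.56 CPM with the combination and 4.14 and 3.98 CPM with R848. Etv3, a repressor, had 160 and 171 CPM with vehicle, 588 and 569 CPM with the combination and 189 and 195 CPM with R848, so that its rise (log2 1.81 ± 0.05, limma adjusted p = 7.36e-14) had no counterpart of 2-fold with R848 (log2 0.21 ± 0.05, limma adjusted p = 0.00165), and the difference between the treatments was 1.59. Ets2 rose with both (log2 1.74 and 2.12). All 3 tested bZIP relatives of Batf were higher with the combination, where the median of the list was 2.34: Batf2 at 3.16 ± 0.13, Nfil3 at 2.34 ± 0.11 and Jdp2 at 1.65 ± 0.09 on the log2 scale. With R848 the values were 1.54, 3.82 and 0.97.

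Among 9 tested relatives of Klf4, Klf3, Klf6 and Klf7 were higher with the combination and with R848. Klf2, Klf10 and Klf11 were lower with both, and Klf9 with the combination. Klf10, a gene of the TGF-β response, fell from 75.8 and 77.4 CPM with vehicle to 7.64 and 6.54 CPM with the combination (log2 −3.44 ± 0.08, limma adjusted p = 7.74e-15) and 8.23 and 8.63 CPM with R848. Klf2, known for keeping monocytes quiescent, fell by 2.46 and 3.00 on the log2 scale in these groups, and Klf11 by 2.37 and 2.15. A list of 16 further myeloid identity factors had 2 higher (Nr1h3 and Myb) and 6 lower with the combination, and 2 higher (Nr4a1 and Gfi1) and 4 lower (Pparg, Bhlhe41, Hhex and Gata2) with R848, with medians of −0.57 and −0.42. With R848, its share of lower genes was under the 30.3% of all genes, and its median was above their −0.50. Bhlhe40, a repressor of Il10, was the largest fall of the well-measured ones with the combination (log2 −2.52 ± 0.08, limma adjusted p = 2.95e-13), beside −0.59 with R848. Gata2 and Myb, factors of early progenitors, were at or under 1.98 CPM in every library. Myb reached 1 CPM only with the combination, and Gfi1 only there and with R848, so both passed the filter through groups in which they were high. Gfi1, which had 0 and 1 read with vehicle, was at least 11.1-fold higher with the combination and at least 53.5-fold higher with R848, taking 3 reads per library as the floor of vehicle, while its limma test passed with R848 (adjusted p = 0.0288) and not with the combination (adjusted p = 0.0706).

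**Figure D5:**
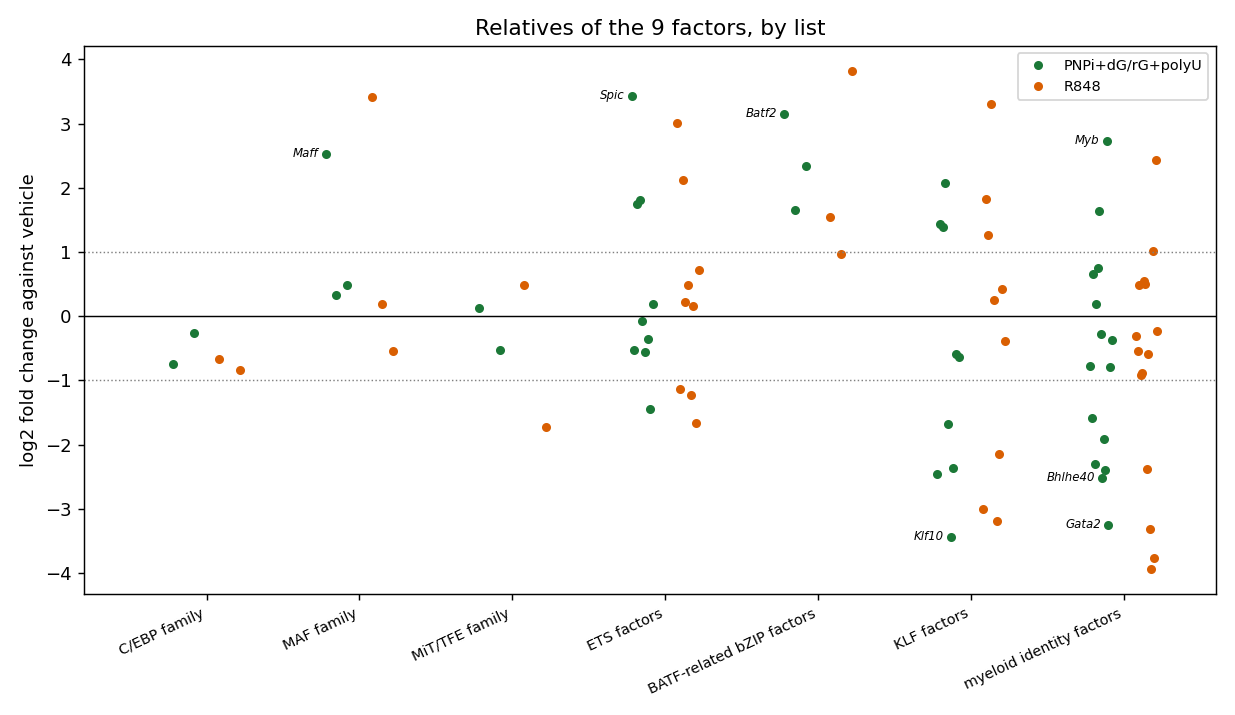
Log2 fold change against vehicle of tested relatives of the 9 factors, by list, with the combination and R848 side by side, 1 point per gene, dotted lines at 2-fold and names for genes past 2.5 with the combination. Maff rises (2.53) and Klf10 falls (−3.44), and not all listed genes are drawn, Gfi1 because its vehicle libraries held 0 and 1 read.

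Genes that these factors are known to control were listed by factor, with earlier results of these data known. Whether the factors had a part in the changes of these genes was not tested. Of 10 genes linked to C/EBP proteins, 9 (all but Arg1) were higher with the combination and all 10 with R848, with median log2 changes of 4.31 and 7.02, beside −0.22 and −0.50 over all genes and 8.12% and 8.89% of all genes higher. Arg1 reached 1 CPM only with R848, and Csf3 and Hp only with the combination and R848. These genes passed the filter through groups in which they were high, so their part in the counts is not independent of it. Il6, the cytokine whose promoter gave C/EBPβ its older name, had 1 and 0 reads with vehicle, 76.4 and 87.4 CPM with the combination and 279 and 265 CPM with R848. Against a floor of 3 reads per vehicle library, it was at least 486-fold and at least 1615-fold higher. Csf3, which encodes G-CSF, was at least 36.7-fold and at least 1117-fold higher in the same way. Ptgs2, the inducible cyclooxygenase, rose from 5.27 and 6.12 CPM to 2306 and 2393 CPM with the combination and 8309 and 7791 CPM with R848.

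The lists of the other factors moved less. Of 12 genes linked to PU.1, 2 were higher with the combination, the oxidase subunit gene Cybb (log2 1.56 ± 0.04, limma adjusted p = 3.30e-15) and the LPS co-receptor gene Cd14 (1.20 ± 0.04, limma adjusted p = 4.48e-13), and 5 were higher (these and Csf2rb, Ncf1 and Ptprc) and 1 lower (Fcgr1) with R848, with medians of 0.30 and 0.59, beside −0.22 and −0.50 over all genes. Of 9 tested genes linked to MITF and its relatives, 0 were higher and 1 lower with the combination, 8 others passing the limma test under 2-fold, and the one was Dcstamp, needed for the fusion of osteoclasts (log2 −2.18 ± 0.31, limma adjusted p = 1.16e-05). With R848, 0 were higher and 3 lower (Dcstamp, Atp6v0d2 and Ctsk), and the medians were −0.57 and −0.78, beside −0.22 and −0.50 over all genes. The shares of lower genes in this list were near those of all genes, 14.3% with the combination and 30.3% with R848. Of 9 genes linked to MAF proteins, Il10 was higher, from 2.02 and 1.97 CPM with vehicle to 113 and 116 CPM with the combination (log2 5.84 ± 0.11, limma adjusted p = 5.19e-16) and 109 and 110 CPM with R848, and the scavenger receptor gene Stab1 (−1.23 ± 0.05, limma adjusted p = 1.12e-12) and F13a1 (−1.37 ± 0.40, limma adjusted p = 0.00624) were lower with the combination. With R848, Stab1 was lower too (−1.05 ± 0.05, limma adjusted p = 4.00e-12), whereas F13a1 was at 0.48 ± 0.40 and did not pass the test (limma adjusted p = 0.271). Of 3 tested genes linked to KLF4, none changed by 2-fold with the combination, where the limma test passed for 1 (Mrc1, log2 −0.74 ± 0.05, limma adjusted p = 7.84e-10). In the R848 libraries, 1 was higher (Arg1) and 1 lower (Chil3), and Mrc1 was at −0.97 on the log2 scale. Both changed genes were scarce: Arg1 had 1.06 and 1.13 CPM with R848, and Chil3 had 1.85 and 1.74 CPM with vehicle.

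Some of the 9 share their locus with another gene, and whether the counting used strand is not given in the sources used here. Cebpb overlaps Tmem189 on the opposite strand, which had 249 and 262 CPM with vehicle, 128 and 120 CPM with the combination and 130 and 140 CPM with R848, opposite in direction to Cebpb. Cebpd overlaps Spidr on the opposite strand, which stayed between 32.8 and 38.2 CPM in all 10 libraries. An antisense gene over the 5′ end of Cebpa and another within Maf had at most 0.562 and 0.985 CPM, and a pseudogene within Mitf at most 0.0613 CPM.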

How the data were processed

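RNA of 10 BMDM libraries (5 groups, 2 libraries each, grouped by GEO's labels) was measured by stranded mRNA sequencing (50 bp). Per the methods, the authors used GRCm38 with genes of Ensembl release 97 for mapping and counting and normalized in Partek Flow. The deposited values are CPM, each raised by 0.0001. The submitters' processing notes name STAR 2.27a and bcl2fastq 2.19.1.403. CPM has no correction for strongly induced genes, which lower all other values of a library. Depth was worked out from the steps of low values, of which 100% (up to 50 reads, with that increment removed) were whole reads within 0.05 read. A gene with 3 reads had between 0.0781 and 0.212 CPM, a floor that covers counting error only.

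Tests used log2 of the deposited values in limma 3.58.1 (R 4.3.3, statmod 1.5.0; eBayes with trend and robust estimates) over all 5 groups, since the study compared all groups in an ANOVA on these values, and Benjamini-Hochberg adjustment over the 11978 genes that reached 1 CPM in 2 or more libraries. Called genes had an adjusted p under 0.05 and at least 2-fold. The limma fit was tested on simulated reads, with known changes put into the combination. The other steps had no such test. The 9 genes, the lists and the markers were chosen with earlier results of these data known. Named list genes are up to 3 with the largest change with the combination (PNPi+dG/rG+polyU) among those changed, and for markers those at or near 0 and the highest. Other list genes (such as Tfeb, Cebpg, Ddit3, Gfi1, Klf3 and Mrc1) were named after their values were seen. Ddit3 had 2 identifiers, of which the first was used. Positions are those of GENCODE M21 (Ensembl 96, 1 release before that of the authors), in which 55394 of 55573 identifiers had a symbol. Alternatives were pseudocounts of 0.1 and 1, 2 other filters, centring each library on its median gene, plain eBayes, fitting only the groups compared, a replicate block, and omitting every library once. Some listed genes are not reported here.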

Additional observations from a re-analysis of the deposited data

Results flagged for a closer look

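For 5 of the 9 factors, adding PNPi+dG/rG had an effect in the presence of polyU that differed from the one in its absence by at least 2-fold in limma's interaction test, at an adjusted p under 0.05. The difference between both effects on the log2 scale was 2.63 for Cebpd (2.80 with polyU, 0.17 without), 2.46 for Batf (2.81 and 0.35), 1.54 for Tfec (1.83 and 0.29), 1.19 for Cebpb (1.20 and 0.02) and −1.73 for Klf4 (−1.63 and 0.10). In each of these, both libraries with the combination lay on the same side of both polyU libraries. The 5 were picked by their values in these same libraries, so this is description and not further support. With 2 libraries per group, no group was large enough to look for single libraries that stand apart.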

How the results depend on the processing

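With 2 libraries per group, precision comes from the spread shared over genes and groups. Of 1197 values of single factors under the alternatives, 1177 kept direction and call, 9 newly passed 2-fold and 11 changed sign. Centring each library on its median gene gave 1 changed factor (Cebpb) instead of 0 between the combination and R848 and turned Cebpa to −0.040, Cebpd to −0.23 and Maf to −0.20 there. The other sign changes were in values near 0. For PNPi+dG/rG against vehicle, Cebpb was at −0.014 and Spi1 at −0.0083 with centred libraries, and without vehicle replicate 1 Cebpb at −0.070, Spi1 at −0.043 and Mitf at 0.025. Spi1 was at −0.0094 without PNPi+dG/rG replicate 1, with a range over libraries left out of −0.043 to 0.091, and Klf4 at −0.0099 without PNPi+dG/rG replicate 2, with a range of −0.0099 to 0.218. Batf turned to 0.015 between the combination and R848 without PNPi+dG/rG+polyU replicate 1. The cause was not tested. Leaving out 1 library in turn gave 3 to 4 changed factors with polyU (Klf4 at −1.02 without polyU replicate 2), 0 to 0 with PNPi+dG/rG, 6 to 7 with the combination (Spi1 at 1.04 without vehicle replicate 2), 7 to 7 with R848, 5 to 6 for the combination against polyU, 0 to 0 against R848, 5 to 5 for the interaction, and 13 to 16 neighbouring pairs that did not differ. An arm left with 1 library was assumed to vary like the others. Replicate numbers were taken as names only. Deviations of same-numbered libraries over 10 pairs of groups and 8459 genes correlated with a median of −0.02 (−0.29 to 0.11). The lowest values were those of PNPi+dG/rG with vehicle (−0.29) and with polyU (−0.27). These correlations cannot show whether the libraries were paired. In a model with the replicate block, the counts of changed factors were 3, 0, 6, 7, 5, 0 and 5 in the order just given, as without it, and 13 neighbouring pairs in place of 15 did not differ. A block in which PNPi+dG/rG had its numbers exchanged, added after seeing the data, gave the same counts and 14 pairs. Planned tests on counts recovered from the CPM were not run.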
